A study of Homo sapiens with 6 samples.

Results

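The 41 genes described here encode the machinery that folds, inspects and disposes of proteins in the endoplasmic reticulum (ER), together with sensors of the unfolded protein response. They were taken by gene symbol from a fixed list, chosen with earlier results of these data known. All 41 were found among the 18126 symbols measured. The cells were 786-O, a human line established from a clear cell renal carcinoma. By the labels, 3 RNA libraries are from siTEAD4 cells, a name that stands for an siRNA directed at TEAD4, and 3 are from Control cells. TEAD4 binds DNA and recruits the coactivator YAP, and the series is titled for YAP, TEAD4 with NF-κB, and growth of ccRCC tumours. The siRNA sequence, its dose and the time after transfection are not given, and 1 cell line gave all 6 libraries. Column headers in the tables name another treatment, "Tead_Inhibitor" for siTEAD4 1 to 3 and "Vehicle" for Control 2 and 3. Group names here follow the sample labels and say nothing on which of these treatments was used.

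Proteins that enter the ER are bound by the Hsp70 chaperone HSPA5 (BiP), glycosylated, and held by the lectins calnexin and calreticulin while protein disulfide isomerases form their disulfide bonds. Chains that fail to fold are carried back to the cytosol and degraded, a route called ER-associated degradation (ERAD). When unfolded proteins build up, the membrane sensors ATF6, IRE1 (encoded by ERN1) and PERK (encoded by EIF2AK3) start the unfolded protein response, in which cleaved ATF6 and the spliced form of XBP1 activate genes of this same machinery.

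Values are FPKM, which divide the fragments of a gene by its length and by the size of the library, so levels can be set beside each other between genes. Between 15676 and 15857 symbols were above 0 in a library, and the depth behind a value is unknown because the tables hold no counts. The test was limma on log2(FPKM + 1), run on the 11411 genes that reached 1 FPKM in 3 or more libraries. A gene was called when its p, adjusted by Benjamini-Hochberg over these genes, was under 0.05. TEAD4 itself had 8.92, 7.65 and 7.52 FPKM in siTEAD4 1, 2 and 3, and 12.5, 17.0 and 11.3 FPKM in Control 1, 2 and 3. It was lower in every siTEAD4 library (adjusted p = 0.00521; exact permutation p = 0.1, two-sided, the minimum for 3 against 3). Of 8 markers of renal carcinoma cells, 4 were lower, 1 was higher and 3 did not pass. PAX8 (70.2 FPKM in siTEAD4 against 76.6 FPKM in Control) and VIM (3064 FPKM in siTEAD4 against 3341 FPKM in Control) were among those that did not pass, and the largest falls, as log2 fold changes, were CDH6 (-2.35), CD70 (-1.07) and NNMT (-0.78). EPAS1 was the marker that was higher (48.6 FPKM in siTEAD4 against 39.02 FPKM in Control; 0.32, adjusted p = 0.035), and it no longer passed when Control 3 or a siTEAD4 library was left out (adjusted p 0.0856 to 0.113) or under the 3 other scalings (0.0732 to 0.0873). Of 11 markers of blood, vessel, liver and mural cells that were found, 9 were below the filter, with PTPRC the highest of the 9 at up to 0.42 FPKM and CD3E, CDH5 and HBB at 0 in 5 of 6 libraries. The others, CD68 (20.01 FPKM in siTEAD4 against 31.7 FPKM in Control) and ACTA2 (6.01 FPKM in siTEAD4 against 9.48 FPKM in Control) were lower in siTEAD4. The 11 markers summed to 25.1 to 29.03 FPKM in siTEAD4 and 36.3 to 48.9 FPKM in Control, and the 9 to 0.52 to 0.66 FPKM in siTEAD4 and 0.54 to 0.82 FPKM in Control. The 3 Control libraries were less alike than the 3 siTEAD4 libraries: the SD of log2 values was larger in Control for 34 of the 39 tested members and for 84.8% of all genes tested. Control 2 differed from Control 1 and 3 with transcript length, with a Spearman rho of -0.54 between length and its deviation across 11156 genes and -0.68 across the 39 members, which all share these libraries.

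Most of the ER genes that changed were lower in siTEAD4, while a small group that includes HSPA5 was higher. Of the 41 members, 39 passed the filter, and ERN1 and DERL3 did not. By limma, 29 of the 39 were called, where 44.9% of all genes tested were. Of these, 24 were lower and 5 were higher, against 18.8% and 26.1% of all genes tested. As the list was chosen with earlier results of these data known, these shares describe it and do not test it. The 5 that rose were SDF2L1, CRELD2, MANF, HSPA5 and XBP1. Fold changes ran from -1.49 for UGGT1 to 1.28 for SDF2L1, with a median of -0.36 on the log2 scale over the 39 members and of 0.09 over all genes tested. A change of at least 1 on the log2 scale, in either direction, was seen in 7 called members and in 4.13% of all genes tested. The siTEAD4 and Control libraries did not overlap in 32 members, below Control in 26 and above it in 6. Over all genes tested this share was 57.7%, with 22.6% below and 35.1% above. The balance of calls over all genes moved with the scaling, from 58.2% higher as deposited to 46.9% higher once library medians were made equal. With equal medians 4 members were higher and 24 lower. The median transcript length was 2173 bases in the 5 members called higher, 3798.5 bases in the 24 called lower and 3693.5 bases in the 10 that did not pass. Spearman rho between length and log2 fold change was -0.36 over the 39 members and -0.02 over 11156 genes. The part of length in the counts was not tested beyond a fit on values freed of length and GC trends. That fit was chosen after seeing the data, and in it 4 members were higher and 26 lower. In bulk RNA, less of a transcript per cell and fewer cells that make it cannot be told apart.

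**Figure D1:**
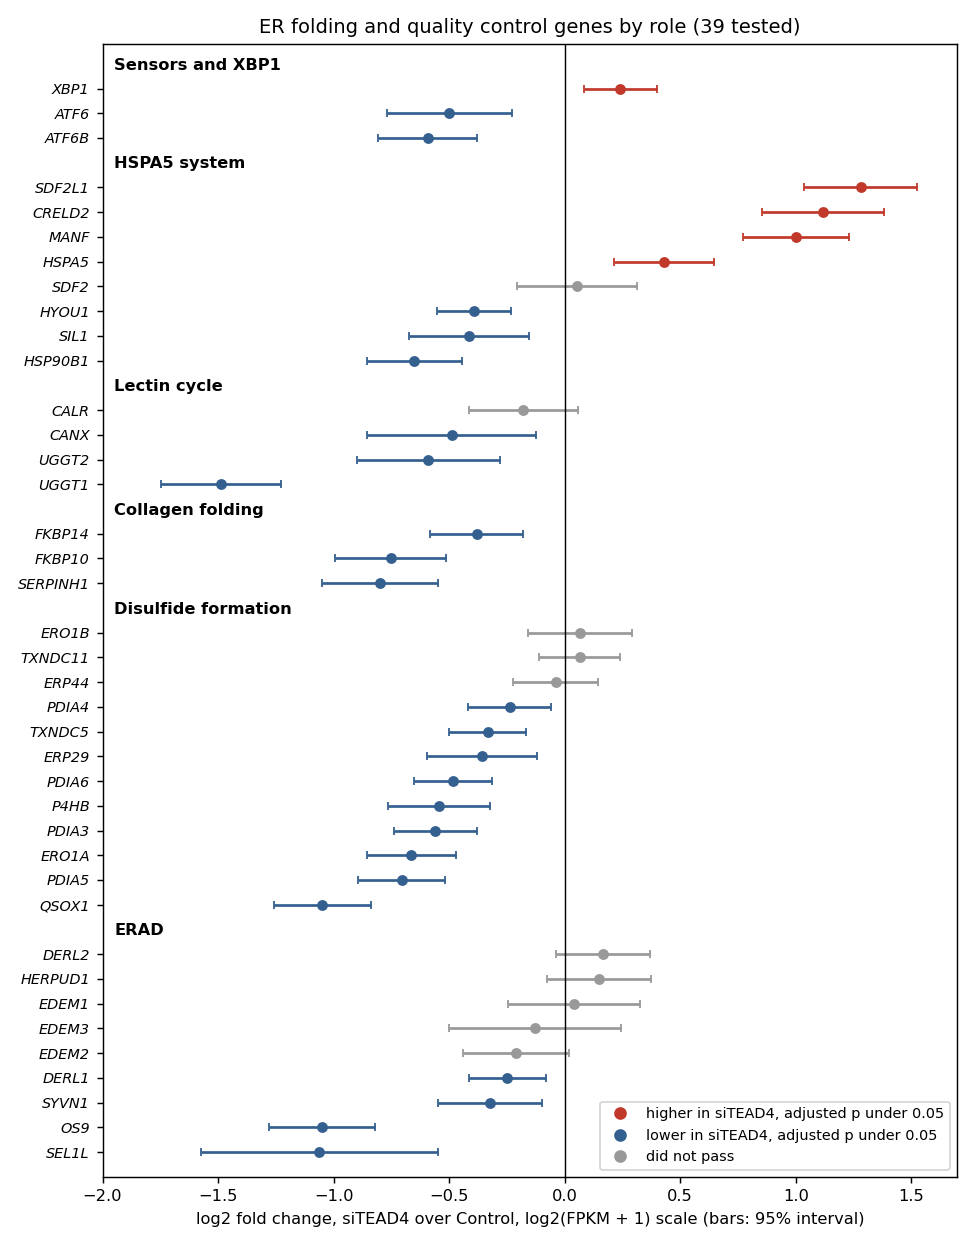
Log2 fold change of siTEAD4 over Control for the 39 tested ER genes, on the log2(FPKM + 1) scale, grouped by role, with bars for the 95% interval from limma; colours mark the 5 genes called higher, the 24 called lower and the 10 that did not pass. SDF2L1, CRELD2, MANF and HSPA5 lie to the right of 0 in the HSPA5 system, and no gene of the lectin cycle, collagen folding, disulfide formation or ERAD was called higher.

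Both ATF6 sensor genes were lower, and XBP1, which acts downstream of the sensor IRE1, was slightly higher. ATF6 (chromosome 1, 161766294 to 161964070, plus strand; GRCh38, as are all coordinates here) encodes the sensor whose cleaved fragment enters the nucleus, and it had 12.1, 13.7 and 14.7 FPKM in siTEAD4 1, 2 and 3, and 22.0, 16.5 and 20.1 FPKM in Control 1, 2 and 3. Its siTEAD4 libraries all lay below Control, at 69.0% of the Control mean (log2 fold change -0.50 ± 0.119 (SE), adjusted p = 0.00944). The paralogue ATF6B had 24.8, 25.8 and 26.4 FPKM in the siTEAD4 libraries, against 35.0, 43.8 and 39.3 FPKM in Control, again without overlap (log2 fold change -0.59 ± 0.0942 (SE), adjusted p = 0.00122). XBP1 (chromosome 22, 28794555 to 28800597, minus strand) encodes the transcription factor whose mRNA IRE1 splices, and it had 117, 114 and 113 FPKM in siTEAD4 1, 2 and 3, and 95.3, 97.7 and 97.7 FPKM in Control 1, 2 and 3. The groups did not overlap, but the difference was small, at 118% of Control (log2 fold change 0.24 ± 0.0694 (SE), adjusted p = 0.0212). XBP1 no longer passed when Control 3 or a siTEAD4 library was left out (adjusted p 0.0592 to 0.109). The same held with equal medians (0.103), TMM-like scaling (0.0759), quantile normalization (0.0539) and values freed of length and GC trends (0.106). One value per gene cannot separate spliced from unspliced XBP1. ERN1, which encodes IRE1 itself, had 0.880, 0.920 and 0.880 FPKM in siTEAD4 1, 2 and 3, and 1.42, 0.820 and 1.02 FPKM in Control 1, 2 and 3; the groups overlapped and the gene was below the filter.

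The genes grouped here as the HSPA5 system split. HSPA5, SDF2L1, CRELD2 and MANF were higher, and the exchange factors of HSPA5 and the Hsp90 of the ER were lower. HSPA5 (chromosome 9, 125234853 to 125241330, minus strand) had 426, 421 and 450.4 FPKM in siTEAD4 1, 2 and 3, and 333, 284 and 348 FPKM in Control 1, 2 and 3. Every siTEAD4 library lay above every Control library, and the mean was 134% of Control (log2 fold change 0.43 ± 0.0958 (SE), adjusted p = 0.00669). SDF2L1 (chromosome 22, 21642261 to 21644298, plus strand), a stress-inducible component of an ER chaperone complex, had 87.1, 83.9 and 71.4 FPKM in siTEAD4 1, 2 and 3, and 28.8, 35.3 and 33.8 FPKM in Control 1, 2 and 3. It was the largest rise among the members, at 247% of Control (log2 fold change 1.28 ± 0.107 (SE), adjusted p = 4.34e-05). CRELD2 (chromosome 22, 49918167 to 49927540, plus strand), a secretory-pathway protein that ER stress induces, had 60.5, 58.8 and 56.8 FPKM in siTEAD4 1, 2 and 3, and 21.9, 30.3 and 28.0 FPKM in Control 1, 2 and 3. MANF (chromosome 3, 51385047 to 51389397, plus strand), a small ER protein that binds HSPA5 and can be secreted, had 219, 225 and 240.1 FPKM in siTEAD4 1, 2 and 3, and 98.8, 125 and 118 FPKM in Control 1, 2 and 3. Both were without overlap and at 219.7% and 200.3% of Control (CRELD2 1.12 ± 0.116, adjusted p = 0.000127; MANF 1.00 ± 0.1004, adjusted p = 0.000107; log2, SE). SDF2, the paralogue of SDF2L1, had 37.4, 35.9 and 37.1 FPKM in siTEAD4 1, 2 and 3, and 29.4, 39.7 and 38.1 FPKM in Control 1, 2 and 3; the groups overlapped and it did not pass (adjusted p = 0.727, 95% interval -0.21 to 0.31).

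HSP90B1 (chromosome 12, 103930107 to 103953645, plus strand), the Hsp90 chaperone of the ER also called GRP94, moved the other way from HSPA5. It had 316, 316 and 321 FPKM in siTEAD4 1, 2 and 3, and 528, 447 and 527 FPKM in Control 1, 2 and 3. The siTEAD4 libraries lay close together and all below Control, at 63.5% of its mean (log2 fold change -0.65 ± 0.0907 (SE), adjusted p = 0.000625). Both nucleotide exchange factors of HSPA5 were also lower. HYOU1, a large Hsp70-like exchange factor, had 40.2, 40.6 and 40.5 FPKM in the siTEAD4 libraries, against 54.4, 54.5 and 51.4 FPKM in Control (log2 fold change -0.39 ± 0.0708 (SE), adjusted p = 0.00235). SIL1, the other exchange factor, had 21.7, 21.8 and 20.2 FPKM in the siTEAD4 libraries, against 24.2, 33.2 and 29.1 FPKM in Control (log2 fold change -0.41 ± 0.114 (SE), adjusted p = 0.0176). The groups did not overlap in either gene, but SIL1 no longer passed when Control 3 or a siTEAD4 library was left out (adjusted p 0.0506 to 0.0730). Summed over the 8 genes of this system, levels were 1216 ± 18.7 FPKM in siTEAD4 and 1114 ± 61.7 FPKM in Control (SD, n = 3 each).

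**Figure D2:**
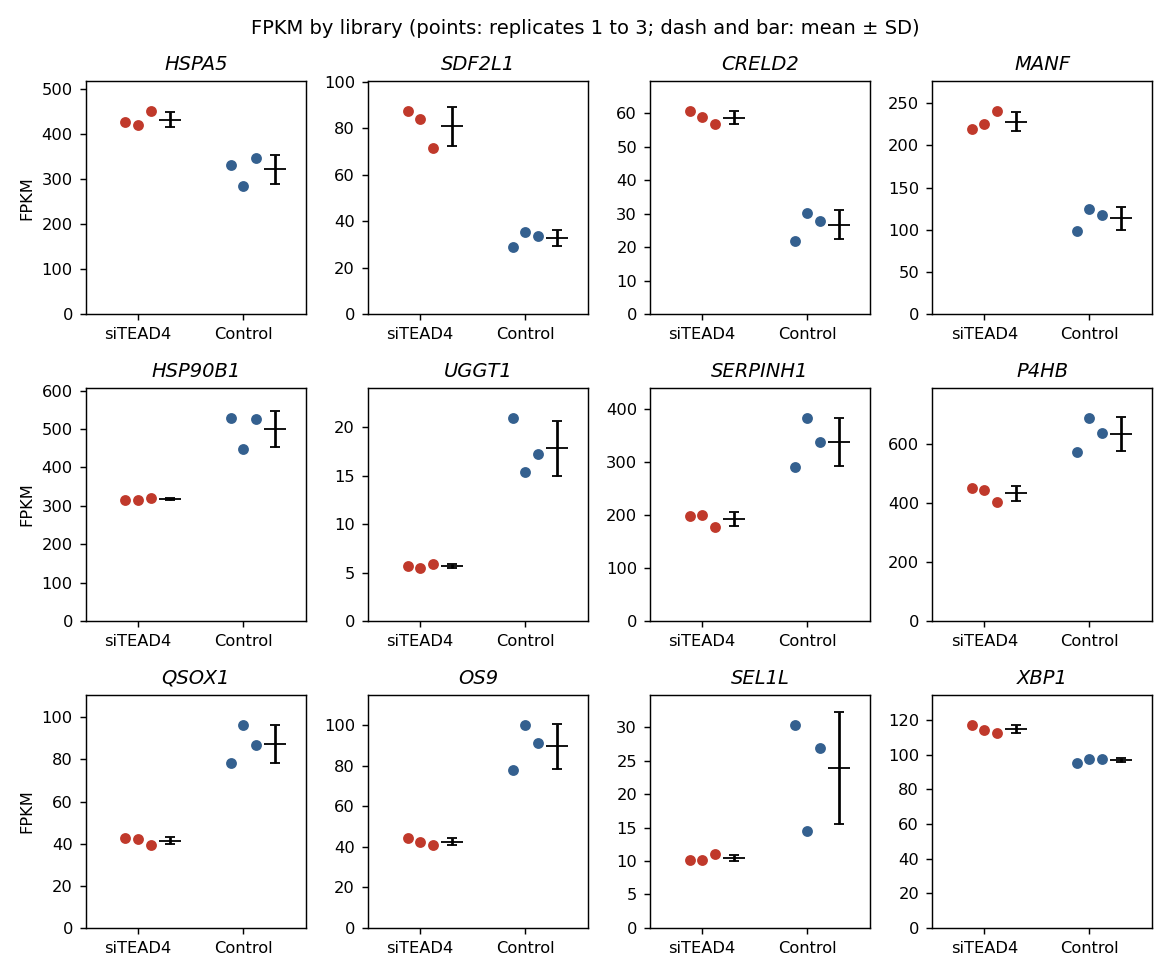
FPKM in each library for 12 ER genes, with siTEAD4 on the left and Control on the right of each panel; points are replicates 1 to 3, and the dash with its bar is the mean ± SD. HSPA5, SDF2L1, CRELD2, MANF and XBP1 are higher in all 3 siTEAD4 libraries, and HSP90B1, UGGT1, SERPINH1, P4HB, QSOX1, OS9 and SEL1L are lower in all 3; Control 2 is the lowest Control library for SEL1L at 14.5 FPKM.

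Promoters were searched for 3 elements of the unfolded protein response. The first, the ER stress response element (ERSE), was found in 3 of the 5 members that rose. It was also in 3 of the 20 that fell and have a promoter window. ERSE, which ATF6 binds together with the factor NF-Y, was searched as CCAAT and CCACG with 9 bases of any kind between them. The related ERSE-II was searched as ATTGG and CCACG with 1 base between them. Both strands of RefSeq promoter windows of GRCh38.p14 were read, from 250 bases before to 50 bases after each annotated start. Windows were found for 36 of the 41 members, and not for FKBP10, FKBP14, PDIA3, DERL1 and DERL3. ERSE was present in a window of 8 of these 36 members and of 25 of all 27305 genes with windows (0.092%), and ERSE-II in 3 members and 19 genes (0.070%). The 8 members with ERSE were HSPA5, CRELD2 and XBP1, which rose, HSP90B1, PDIA6 and CANX, which fell, and CALR and ERO1B, 2 of the 10 with windows that did not pass. ERSE-II was found in SDF2L1, which rose, HYOU1, which fell, and HERPUD1, which did not pass. TGACGTGG, the core of the site that XBP1 and ATF6 bind, was in windows of HYOU1, TXNDC5 and TXNDC11 and in 0.927% of genes. In HYOU1 it overlaps an ERSE-II. By call, ERSE-II was in 1 of the 5 members that rose and in 1 of the 20 that fell. TGACGTGG was in 0 of the 5 and in 2 of the 20. The window of MANF held no match to any of the 3 elements. Stretches from 4 genes that rose and 3 that fell are shown 5′ to 3′ on the strand of the gene so that the elements can be compared, with the matched letters in capitals; a match read on the other strand appears as its reverse complement.
HSPA5: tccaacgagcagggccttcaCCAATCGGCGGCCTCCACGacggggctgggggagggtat
CRELD2: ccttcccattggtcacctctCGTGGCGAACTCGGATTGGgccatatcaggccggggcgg
XBP1: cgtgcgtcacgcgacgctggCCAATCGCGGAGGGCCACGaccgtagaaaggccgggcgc
SDF2L1: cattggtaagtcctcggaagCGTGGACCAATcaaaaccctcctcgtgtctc
HSP90B1: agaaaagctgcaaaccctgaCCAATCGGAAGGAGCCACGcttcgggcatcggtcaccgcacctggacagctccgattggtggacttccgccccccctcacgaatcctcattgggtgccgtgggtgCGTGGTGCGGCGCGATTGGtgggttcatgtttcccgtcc
PDIA6: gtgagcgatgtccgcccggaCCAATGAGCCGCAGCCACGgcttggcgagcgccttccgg
HYOU1: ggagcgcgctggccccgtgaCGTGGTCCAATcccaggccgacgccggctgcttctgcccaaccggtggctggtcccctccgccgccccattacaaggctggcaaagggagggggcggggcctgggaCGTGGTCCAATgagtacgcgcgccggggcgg
These lie at chr9:125241371-125241429, minus strand for HSPA5; chr22:49918534-49918592, plus strand for CRELD2; chr22:28800583-28800641, minus strand for XBP1; chr22:21642094-21642144, plus strand for SDF2L1; chr12:103930196-103930359, plus strand for HSP90B1; chr2:10812833-10812891, minus strand for PDIA6; and chr11:119057254-119057410, minus strand for HYOU1. The match begins 66 bases before the annotated start in HSPA5, 80 in CRELD2 and 52 in XBP1. HSP90B1 holds 2 ERSE matches, of which the nearer begins 89 bases before the start, and HYOU1 holds 2 ERSE-II matches. The stretches of CRELD2, HSP90B1 and PDIA6, and part of that of XBP1, lie inside the GENCODE 29 span of the gene, which starts before the RefSeq start used. A match describes the letters in the window and does not show binding.

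In the lectin cycle, glycoproteins with a single glucose are bound by calnexin and calreticulin and, if unfolded, reglucosylated by UGGT enzymes. Of its 4 genes, 3 were lower, most of all the folding sensor UGGT1. UGGT1 (chromosome 2, 128091200 to 128195677, plus strand), the enzyme that recognises unfolded glycoproteins, had 5.71, 5.45 and 5.87 FPKM in siTEAD4 1, 2 and 3, and 20.9, 15.3 and 17.3 FPKM in Control 1, 2 and 3. It was the largest fall among the members, at 31.8% of Control with no overlap (log2 fold change -1.49 ± 0.115 (SE), adjusted p = 2.81e-05). UGGT2, its less abundant paralogue, had 2.86, 3.18 and 3.20 FPKM in the siTEAD4 libraries, against 5.88, 3.93 and 5.81 FPKM in Control (log2 fold change -0.59 ± 0.136 (SE), adjusted p = 0.00786). CANX, the gene of calnexin, had 119, 115 and 122 FPKM in siTEAD4 1, 2 and 3, and 211, 126 and 173 FPKM in Control 1, 2 and 3. All siTEAD4 libraries lay below Control, but Control 2 was close to them and the Control libraries were spread widely (log2 fold change -0.49 ± 0.161 (SE), adjusted p = 0.036). CANX no longer passed when any library other than Control 2 was left out (adjusted p 0.0541 to 0.117), and without Control 1 its log2 fold change was -0.32. CALR, the gene of calreticulin and the most abundant member, ranked 70 of 18126 symbols by mean FPKM. It had 885, 896 and 843 FPKM in siTEAD4 1, 2 and 3, and 934, 1128 and 920.3 FPKM in Control 1, 2 and 3. All siTEAD4 libraries lay below Control, but CALR did not pass (log2 fold change -0.18 ± 0.103 (SE), adjusted p = 0.188). It did pass after quantile normalization (-0.24, adjusted p = 0.0162) and in the fit freed of length and GC trends (-0.18, adjusted p = 0.0247).

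All 3 genes of collagen folding were lower. SERPINH1 (chromosome 11, 75562056 to 75572783, plus strand), which encodes the collagen chaperone HSP47, had 199, 201 and 178 FPKM in siTEAD4 1, 2 and 3, and 291, 382 and 338 FPKM in Control 1, 2 and 3. FKBP10 and FKBP14 encode prolyl isomerases that act on procollagen, and FKBP10 had 96.0, 96.4 and 96.5 FPKM in siTEAD4 1, 2 and 3, and 142, 190.1 and 160.1 FPKM in Control 1, 2 and 3. These 2 genes fell by similar amounts and without overlap (SERPINH1 -0.80 ± 0.111, adjusted p = 0.000604; FKBP10 -0.75 ± 0.106, adjusted p = 0.000664; log2, SE). FKBP14 had 13.3, 12.4 and 12.2 FPKM in the siTEAD4 libraries, against 17.3, 15.3 and 17.8 FPKM in Control and fell by less (log2 fold change -0.38 ± 0.0883 (SE), adjusted p = 0.00808). Their summed level was 301 ± 13.0 FPKM in siTEAD4 and 518 ± 68.4 FPKM in Control (SD, n = 3 each), the lowest share of Control among the 6 roles at 58.2%.

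Of the 12 genes of disulfide formation, 9 were lower and none was higher by limma. The group median was -0.42 on the log2 scale, and the summed level was 1489 ± 22.1 FPKM in siTEAD4 and 2079 ± 76.1 FPKM in Control. P4HB (chromosome 17, 81843159 to 81860694, minus strand), the disulfide isomerase PDI and the most abundant of the group, had 451, 443 and 405 FPKM in siTEAD4 1, 2 and 3, and 573, 688 and 638 FPKM in Control 1, 2 and 3. Its libraries did not overlap (log2 fold change -0.54 ± 0.0964 (SE), adjusted p = 0.00215). The isomerase PDIA3 (ERp57), which works with calnexin and calreticulin, had 219, 209 and 214 FPKM in siTEAD4 1, 2 and 3, and 304, 306 and 337 FPKM in Control 1, 2 and 3 (log2 fold change -0.56 ± 0.0788 (SE), adjusted p = 0.00066), and PDIA5 had 31.2, 29.1 and 29.9 FPKM in siTEAD4 1, 2 and 3, and 45.5, 51.8 and 51.9 FPKM in Control 1, 2 and 3 (log2 fold change -0.71 ± 0.0826 (SE), adjusted p = 0.000257). GENCODE annotates a gene on the other strand over 14.8% of the exon bases of PDIA3 (ELL3, on average 0.367 FPKM), and SEC22A on the same strand over 12.2% of those of PDIA5; how reads in such stretches were assigned is not given, so these values are uncertain to that extent. The 4 other called members of the protein disulfide isomerase family fell by 0.24 to 0.48: PDIA6 (-0.48), ERP29 (-0.36), TXNDC5 (-0.33) and PDIA4 (-0.24). TXNDC5 shares 60.6% of its exon bases with the readthrough gene BLOC1S5-TXNDC5, and PDIA6 shares 25.2% with ATP6V1C2 on the other strand. ERP29 shares 17.5% with AC073575.2, also on the other strand. Overlaps are not listed here for every member. PDIA4 no longer passed when a siTEAD4 library was left out (adjusted p 0.116 to 0.133), nor did ERP29 when Control 3 or a siTEAD4 library was (0.0617 to 0.0825).

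The oxidases that supply disulfide bonds showed the same direction where they were well expressed. QSOX1 (chromosome 1, 180154834 to 180204030, plus strand), a sulfhydryl oxidase of the Golgi and the cell exterior, had 42.8, 42.2 and 39.4 FPKM in siTEAD4 1, 2 and 3, and 78.3, 96.3 and 86.7 FPKM in Control 1, 2 and 3. It was the largest fall of the disulfide group, at 47.6% of Control (log2 fold change -1.05 ± 0.0923 (SE), adjusted p = 5.58e-05). ERO1A, which reoxidises PDI, had 24.8, 24.8 and 23.4 FPKM in siTEAD4 1, 2 and 3, and 42.1, 35.8 and 39.6 FPKM in Control 1, 2 and 3, without overlap (log2 fold change -0.66 ± 0.0850 (SE), adjusted p = 0.000406). Its paralogue ERO1B was near the filter, with 1.26, 1.28 and 1.47 FPKM in the siTEAD4 libraries, against 1.44, 1.02 and 1.24 FPKM in Control, and did not pass (95% interval -0.16 to 0.29). The remaining 2 members of the group, ERP44, which retains ERO1 enzymes in the early secretory pathway, and TXNDC11, overlapped between groups at 14.4 FPKM in siTEAD4 against 14.8 FPKM in Control and at 13.8 FPKM in siTEAD4 against 13.2 FPKM in Control (adjusted p = 0.717 and 0.513).

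In ERAD, 4 of the 9 tested genes, OS9, SEL1L, SYVN1 and DERL1, were lower, and none was higher by limma. OS9 (chromosome 12, 57693955 to 57721557, plus strand), a lectin that hands misfolded glycoproteins to the ligase, had 44.5, 42.5 and 40.9 FPKM in siTEAD4 1, 2 and 3, and 78.0, 100.1 and 91.1 FPKM in Control 1, 2 and 3. It stood at 47.5% of Control without overlap (log2 fold change -1.05 ± 0.1004 (SE), adjusted p = 8.36e-05). SEL1L (chromosome 14, 81471549 to 81533861, minus strand), the adaptor that joins OS9 to the ubiquitin ligase, had 10.2, 10.1 and 10.98 FPKM in siTEAD4 1, 2 and 3, and 30.3, 14.5 and 26.9 FPKM in Control 1, 2 and 3. Its fall was as large (log2 fold change -1.06 ± 0.225 (SE), adjusted p = 0.00532) but the Control libraries differed widely among themselves, with Control 2 nearest to siTEAD4. SYVN1, the ligase HRD1, had 10.3, 11.2 and 9.46 FPKM in the siTEAD4 libraries, against 11.9, 14.0 and 13.6 FPKM in Control (log2 fold change -0.32 ± 0.0986 (SE), adjusted p = 0.0268), and DERL1, a part of the channel through the membrane, had 39.9, 40.5 and 41.1 FPKM in the siTEAD4 libraries, against 50.5, 46.1 and 48.4 FPKM in Control (log2 fold change -0.25 ± 0.0731 (SE), adjusted p = 0.023). Both differences were small. SYVN1 no longer passed when Control 3, siTEAD4 1 or siTEAD4 3 was left out (adjusted p 0.0914 to 0.118), nor did DERL1 when Control 3 or a siTEAD4 library was (0.0694 to 0.104). The count of lower ERAD genes was therefore 2, in place of 4, without siTEAD4 1, siTEAD4 3 or Control 3. SYVN1 shares 7.24% of its exon bases with FAU, a ribosomal protein gene on the same strand at a mean of 385 FPKM. OS9 shares 13.5% of its exon bases with AC025165.2 on the other strand.

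The 5 other tested ERAD genes did not pass by limma. HERPUD1, an ER membrane protein that stress induces, had 29.1, 31.4 and 30.7 FPKM in siTEAD4 1, 2 and 3, and 26.1, 24.8 and 31.4 FPKM in Control 1, 2 and 3, and the groups overlapped (log2 fold change 0.15, 95% interval -0.08 to 0.37). DERL2 was above Control in all 3 siTEAD4 libraries (14.3, 13.6 and 16.1 against 12.6, 13.5 and 12.8 FPKM, adjusted p = 0.162). EDEM2 was below Control in all 3 (25.34, 25.85 and 25.85 against 26.55, 34.59 and 29.06 FPKM, adjusted p = 0.12). The mannosidase-like genes EDEM1, EDEM2 and EDEM3, which mark misfolded glycoproteins, had fold changes of 0.04, -0.21 and -0.13 on the log2 scale. EDEM2 passed without Control 1 (-0.29, adjusted p = 0.0238), after quantile normalization (-0.25, adjusted p = 0.0494) and in the fit freed of length and GC trends (-0.20, adjusted p = 0.00718). EDEM3 passed without Control 2 (-0.33, adjusted p = 0.0101). DERL3 was below the filter, with at most 0.50 FPKM in any library; 77.0% of its exon bases are shared with SMARCB1 on the other strand.

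Ratios within a library cancel the library total. The groups did not overlap for 7 of 14 pairs of members. The share for gene pairs at large was not computed, and for single genes it was 57.7% of all genes tested. For HSP90B1 over HSPA5 the log2 ratio was -0.43, -0.41 and -0.49 in siTEAD4 1, 2 and 3 and 0.67, 0.65 and 0.60 in Control 1, 2 and 3. So the HSPA5 transcript was the more abundant in every siTEAD4 library and the HSP90B1 transcript in every Control library, with a difference of -1.08 between the group means. For SDF2L1 over SDF2 the log2 ratio was 1.20, 1.20 and 0.93 in siTEAD4 1, 2 and 3 and -0.03, -0.16 and -0.17 in Control 1, 2 and 3, a difference of 1.23. UGGT1 over UGGT2 (-0.90), ERO1A over ERO1B (-0.73), DERL2 over DERL1 (0.41), FKBP10 over FKBP14 (-0.37, but -0.20 without Control 2) and PDIA4 over PDIA3 (0.32) also gave groups that did not overlap. Each of these 7 ratios had an exact permutation p of 0.1 (two-sided), the minimum for this design. Adjusted by Benjamini-Hochberg over the 14 pairs compared, it was 0.2. With 3 against 3 libraries the permutation test cannot reach 0.05, whatever the size of the difference. The groups overlapped for the other 7, among them ATF6 over ATF6B (0.09, exact permutation p = 0.8) and HYOU1 over SIL1 (0.02, exact permutation p = 1).

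**Figure D3:**
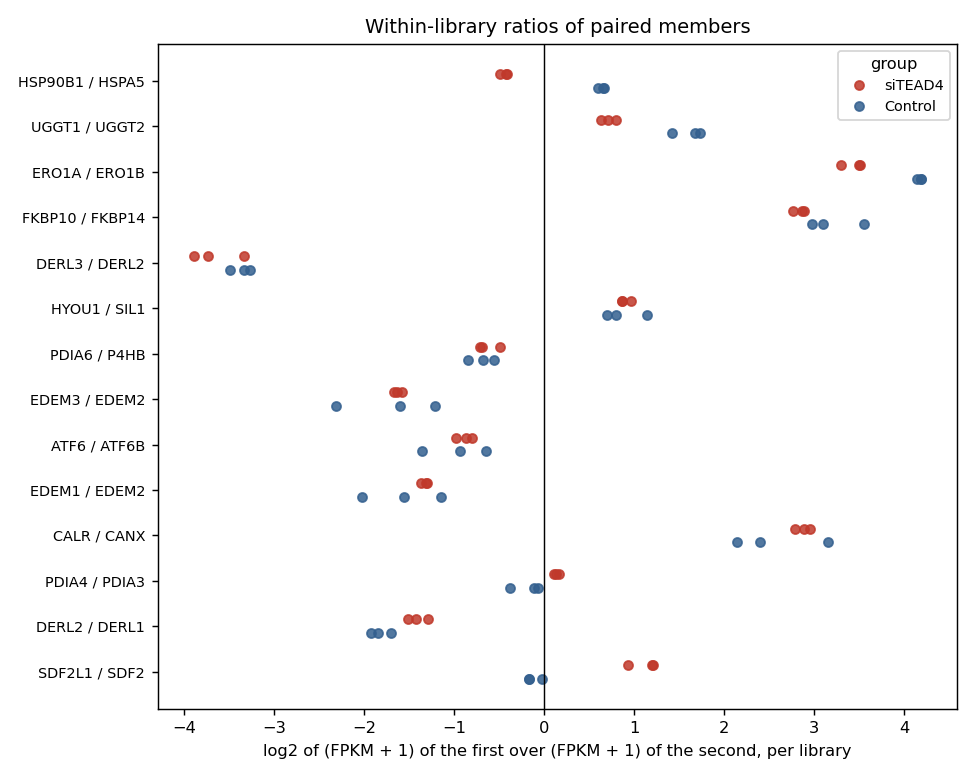
Log2 ratio of 2 members within each library, computed as (FPKM + 1) over (FPKM + 1), for 14 pairs; each point is 1 library, with siTEAD4 drawn above Control in each row. HSP90B1 over HSPA5 lies below 0 in all siTEAD4 libraries and above 0 in all Control libraries, and in ATF6 over ATF6B the siTEAD4 points fall within the Control range.

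Other genes of the same compartment were read from lists chosen by function, with earlier results of these data known. Their counts stand beside 26.1% higher and 18.8% lower over all genes tested. In the PERK arm and its ATF4 response, 6 of 12 tested genes were higher and 3 lower, with a median of 0.37; with equal medians, or without Control 3, siTEAD4 1 or siTEAD4 2, 4 were higher. EIF2AK3, the PERK sensor itself, had 6.71, 6.65 and 6.78 FPKM in siTEAD4 1, 2 and 3, and 12.8, 8.92 and 12.1 FPKM in Control 1, 2 and 3 (log2 fold change -0.66 ± 0.127 (SE), adjusted p = 0.00335). It fell, as did the ATF6 genes. ATF4 had 211, 222 and 208 FPKM in the siTEAD4 libraries, against 178, 224 and 206 FPKM in Control and did not pass (adjusted p = 0.511), while DDIT3, the gene of CHOP, had 26.4, 22.4 and 26.0 FPKM in siTEAD4 1, 2 and 3, and 11.2, 16.9 and 16.1 FPKM in Control 1, 2 and 3 (log2 fold change 0.73 ± 0.146 (SE), adjusted p = 0.0039). ASNS (1.85), PPP1R15A (0.98), which encodes the eIF2α phosphatase subunit GADD34, and ATF3 (0.94) were the largest rises of the list. Among 9 genes of ATF6 processing and the related CREB3 factors, 5 were lower and 1 was higher, with CREB3L2 (-1.02), CREB3L4 (-0.89) and MBTPS2 (-0.77), a protease that cleaves ATF6, as the largest falls. The median of these 9 was -0.64. Without Control 1, 2 or 3, 8 of them passed the filter, 4 were lower and the median was -0.27, -0.37 or -0.25, and with a pseudocount of 5 FPKM the median of the 9 was -0.20.

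Co-chaperones of HSPA5 were mixed. Of 7 ER DNAJ genes, 3 were higher and 1 lower (median -0.13), but 2 were higher and 2 lower with equal medians, and 3 and 3 without Control 2. DNAJB11, which works in a complex with SDF2L1, had 93.5, 99.99 and 97.7 FPKM in siTEAD4 1, 2 and 3, and 67.0, 65.0 and 71.2 FPKM in Control 1, 2 and 3, without overlap (log2 fold change 0.51 ± 0.0750 (SE), adjusted p = 0.000794). DNAJC25 (0.38) rose as well, and SEC63 (-0.47), the translocon's J protein, fell, though not past the threshold without Control 3 (adjusted p = 0.0551). DNAJB9, an inducible J protein, had 8.67, 8.5 and 8.88 FPKM in siTEAD4 1, 2 and 3, and 7.35, 5.02 and 7.33 FPKM in Control 1, 2 and 3 (log2 fold change 0.37 ± 0.132 (SE), adjusted p = 0.0466). It no longer passed when Control 3 or a siTEAD4 library was left out (adjusted p 0.0575 to 0.132), and without Control 2 its log2 fold change was 0.22. The same held with equal medians (0.0769), TMM-like scaling (0.0922), no filter (0.0924) and values freed of length and GC trends (0.0542). DNAJC3 did not pass (-0.22, adjusted p = 0.133), although it did without Control 2 (-0.28, adjusted p = 0.0344) and in the fit freed of length and GC trends (-0.28, adjusted p = 0.0113).

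The steps before and after folding were counted in the same way. A list of 17 genes held the oligosaccharyltransferase, the glucosidases, the mannosidase MAN1B1 and the cargo receptor pair LMAN1 and MCFD2. Of these, 10 were lower, among them LMAN1 (-0.61), and 3 higher, among them MCFD2 (0.43), with a median of -0.53. Both subunits of glucosidase II, which trims glucose in the lectin cycle, were the largest falls: GANAB had 74.4, 74.7 and 74.3 FPKM in siTEAD4 1, 2 and 3, and 212, 224 and 219 FPKM in Control 1, 2 and 3, and PRKCSH had 100.3, 101 and 93.4 FPKM in the siTEAD4 libraries, against 170.2, 243 and 189.6 FPKM in Control (GANAB -1.54, adjusted p = 3.02e-06; PRKCSH -1.01, adjusted p = 0.00034). MAN1B1, the ER mannosidase, also fell (-0.86). Of 16 further ER oxidoreductases and prolyl isomerases, 6 were lower and none higher by limma (median -0.16), although 2 were higher without Control 2 and with values freed of length and GC trends, and 3 to 9 were lower when 1 library was left out. The falls were led by FKBP9 (-1.02), TMX1 (-0.62) and TMX4 (-0.45). Of 18 translocon and signal peptidase genes, 6 were higher (33.3%) and 3 lower (16.7%), with a median of 0.13. Over all genes tested the shares were 26.1% and 18.8%. SEC11C (1.02) and SEC61B (0.73) rose and TRAM2 (-0.65) fell. Of 24 further ERAD genes, 9 were higher (37.5%) and 5 lower (20.8%), with a median of 0.19. Among them ERLIN1 (-1.05) and FOXRED2 (-0.62) were lower and the ubiquitin-conjugating enzyme gene UBE2J1 (0.62) was higher. The higher count of this list was 6 under each other scaling and 5 to 12 when 1 library was left out, and the lower count was 2 to 7, with 2 without siTEAD4 1, siTEAD4 2 or Control 3. Of 13 genes of the COPII coat, which carries folded cargo out of the ER, 10 were higher and 1 lower (median 0.45), led by SEC24D (0.92), SEC31A (0.72) and SEC24A (0.69). All of these counts rest on the same 6 libraries, and whether the lists differ from each other was not tested.

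**Figure D4:**
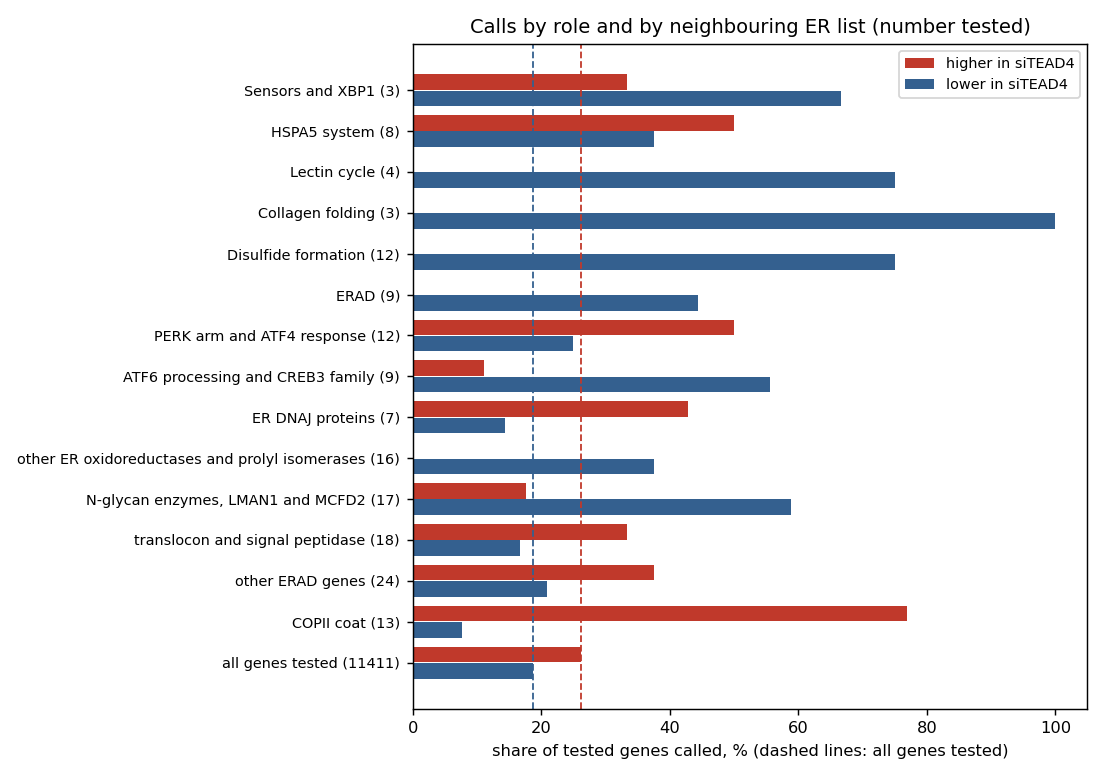
Share of tested genes called higher or lower in siTEAD4, in percent, for the 6 roles of the ER genes and for 8 lists of related genes, with the number tested in parentheses and dashed lines for all genes tested (26.1% higher, 18.8% lower). Disulfide formation, the lectin cycle and collagen folding hold no gene called higher, while 10 of 13 COPII coat genes were.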

How the data were processed

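The deposited tables give 1 FPKM value per symbol and library. In 5 file headers FPKM is named; the value column of Control 1 names no unit and was read as FPKM, since its decimals, range and symbols are those of the others. Trizol extraction and BGISEQ-500 sequencing are stated per the labels, and the build GRCh38 per the submitters' processing notes. Aligner, counter, annotation, strand handling and filters were not given in the sources used here. Separate cultures are not stated, so p-values describe the spread between libraries, which may be technical. Steps of single reads were looked for in low values: 17.3% of 5098 ratios in 1103 genes were within 0.1 of a whole number, against 20% for evenly spread values. The ratios compared libraries without correction for depth, which can move single-read steps off whole numbers, so the search cannot exclude such steps. Read counts were not recovered and intervals for counting error are not given. In no pair of libraries did more than 0.684% of tested genes have the same value.

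Log2(FPKM + 1) values, on which changes of low genes are understated, were fitted by group alone with limma 3.58.1 (R 4.3.3; lmFit, then eBayes with a trend in the mean). The fit was run on simulated data, but no outcome of that check is given here, so it lends no weight to the p-values. Over all genes tested the median SD of log2 values was 0.0607 in siTEAD4 and 0.1599 in Control. Whether the p-values hold under such unequal spread, or under deviations of a library shared across genes, was not tested. Intervals are 95% intervals from limma. Values in every library are given, per role, for up to 5 called members with the largest change, the most abundant member and all sensors, and up to 3 called genes per further list; a few others were named after their values were seen. The members and lists were chosen with earlier results of these data known. Coordinates, transcript lengths and overlaps came from GENCODE 29, and promoters from RefSeq. Alternatives were leaving out each library, a replicate block, 3 other scalings, a filter of 5 FPKM or none, a pseudocount of 0.1 or 5 FPKM, and eBayes without trend or robust. Removing length and GC trends with natural splines (5 degrees of freedom) was chosen after seeing the data.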

Additional observations from a re-analysis of the deposited data

How the results depend on the processing

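Of the 29 ER genes called, all 29 kept their direction and 22 also kept their call in every alternative run (17, or 16 for UGGT2, which a 5 FPKM filter leaves out). The 7 whose call ended in at least 1 alternative were XBP1, SIL1, CANX, PDIA4, ERP29, SYVN1 and DERL1, and the cause was not tested. Members called higher numbered 4 or 5 and members called lower 22 to 26 in the alternatives that kept all 6 libraries; leaving out 1 library gave 4 to 5 higher and 18 to 25 lower. All genes called, 5123 in the fit reported, numbered 3403 (without siTEAD4 1) to 6547 (without Control 2) when 1 library was left out and 6673 with length and GC trends removed. The replicate numbers were not used as pairs in the fit reported. Deviations of same-numbered libraries correlated at -0.16, 0.27 and 0.09, and not every library correlated best with its own number. With 3 libraries per group, these correlations cannot decide whether libraries were paired. With the replicate block, 4 members were called higher and 22 lower, of 5180 genes, and XBP1 (adjusted p = 0.0559), PDIA4 (0.0706) and DERL1 (0.0523) did not pass. CANX also missed the threshold after quantile normalization (adjusted p = 0.0516) and with no filter (0.0787). A pseudocount of 5 FPKM reduced fold changes of low genes, such as UGGT2 (-0.33), and moved the log2 ratio of UGGT1 to UGGT2 to -0.76 and of ERO1A to ERO1B to -0.61; one of 0.1 moved DERL3 to DERL2 to -0.60. Without read counts the precision of low values such as ERN1, DERL3 and ERO1B is unknown.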
